A study of Mus musculus with 6 samples.

Results

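The regions described here are places in the mouse genome where the authors' final lists held PPARγ, a nuclear receptor, in macrophages but not adipocytes. In the macrophage factor lists these places held C/EBPβ without PU.1. They were chosen from the authors' lists of bound regions, with at least 1 bp in common counting as overlap. A macrophage PPARγ region was taken where it overlapped no adipocyte PPARγ region, overlapped a C/EBPβ region and overlapped no PU.1 region. This yielded 216 of the 1961 macrophage PPARγ regions, and 216 of the 1747 that lay outside the adipocyte list. They are called C/EBPβ-alone regions below. A longer adipocyte PPARγ list, described below, met 65 of these 216 regions. The other macrophage-only regions carried PU.1 and C/EBPβ in 799 cases, PU.1 alone in 338 cases and neither factor in 394 cases.

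PPARγ binds DNA as a partner of the retinoid X receptor, responds to fatty acid ligands, and is best known for driving fat cell differentiation. In macrophages it takes part in lipid handling and in the restraint of inflammatory genes. C/EBPβ is a leucine-zipper factor active in both lineages, where it acts early in adipocyte differentiation and in the inflammatory response of macrophages. PU.1 is an ETS-family factor of blood cells that opens chromatin at macrophage enhancers, and it was not mapped in the adipocytes here. Acetylation of histone H3 at lysine 9 (H3K9Ace) is found at active promoters and enhancers.

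Chromatin immunoprecipitation and sequencing (ChIP-seq) gave 6 libraries, each alone in its group. PPARγ, C/EBPβ, PU.1 and H3K9Ace were mapped in macrophages of male C57BL/6 mice. These primary cells were lavaged from the peritoneal cavity 3 days after 1 ml of 3% thioglycollate and kept for 24 h of adherence, with at least 4 animals pooled in each sequencing run. PPARγ and H3K9Ace were mapped in adipocytes differentiated from 3T3-L1, an established preadipocyte line, so the adipocytes are a culture model. PPARγ in macrophages came from 2 runs that the authors joined and the other libraries from 1 run each. The thioglycollate was given to the animals of all 4 macrophage groups and has no counterpart in the adipocytes, so cell type, source and this treatment cannot be told apart. Targets are given here as in the titles and the antibody field, although every library's description says PPARγ. There are no replicates, the number of reads is unknown, and every test below runs over regions of these lists. Such tests compare the lists, treat regions as independent and say nothing of the spread between animals or cultures. All positions are in build mm8, for which no sequence or gene annotation was used here, so regions are named by position alone.

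PPARγ at the C/EBPβ-alone regions was of ordinary strength for the macrophage list. The authors' fold, whose control is named nowhere in the lists, ran from 5.04 to 23.3, with a median of 6.275 and quartiles of 5.58 and 7.71. Median fold was 6.30 where both factors were present, 6.18 with PU.1 alone and 5.75 with neither. The peak height had a median of 13 and a range of 9 to 46. C/EBPβ-alone regions had a median width of 302 bp, against 359 bp with both factors, 316 bp with PU.1 alone and 217 bp with neither. These PPARγ values decided which regions entered the list, at a fold of at least 5, and are given without a test.

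With macrophage-only regions ranked by fold and split into quartiles, weakest first, C/EBPβ alone made up 10.5%, 11.7%, 13.3% and 14.0%. Over the same quartiles the share with neither factor was 32.7%, 27.2%, 21.6% and 8.70%. The C/EBPβ-alone share varied less with PPARγ strength, while regions with neither factor lay mostly among the weakest.

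C/EBPβ sat close to the middle of the PPARγ regions. The distance between the centre of a PPARγ region and that of its C/EBPβ region had a median of 40.3 bp and quartiles of 15 and 93.4 bp. It was at most 50 bp in 125 of 216 regions and at most 100 bp in 163. Overlap was required by the rule and brings centres together, so no test was run. The median distance was 56.5 bp with both factors. It was 59.5 bp at PPARγ regions with C/EBPβ and without PU.1 that met the adipocyte list. C/EBPβ covered a median of 88.5% of the PPARγ region with C/EBPβ alone, and 88.3% and 87.5% in those 2 classes. Most C/EBPβ-alone regions went far beyond the 1 bp needed. C/EBPβ covered at least 50% of the PPARγ region in 195 cases and the whole of it in 64. The C/EBPβ centre had the lower coordinate in 108 of the 216. Each region met a single C/EBPβ region, apart from 4 that met 2, and 220 C/EBPβ regions were involved in all.

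The distances did not fall off evenly. Centres 75 to under 100 bp apart were found in 15 regions, and centres 100 to under 125 bp apart in 25, after which the next 25-bp step held 9. With both factors present, the same steps held 74, 76 and 43 of 799 regions. No test was run on this shape.

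**Figure D1:**
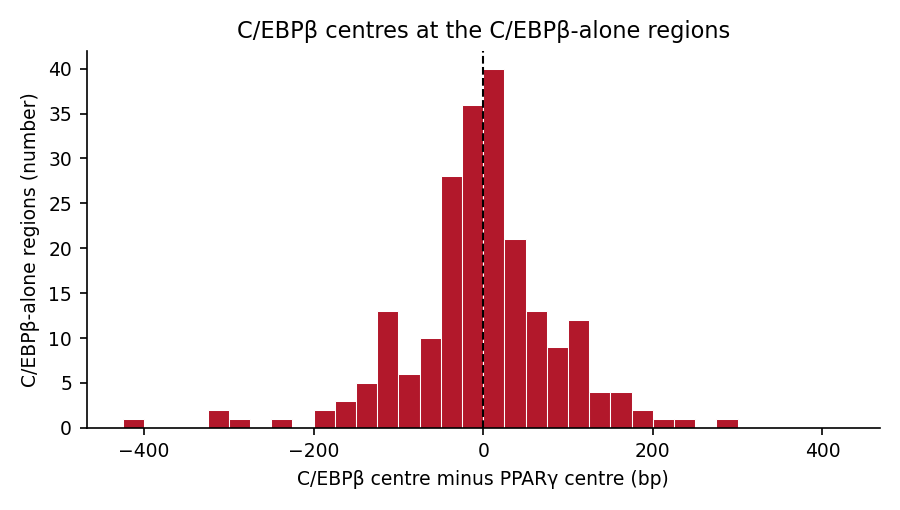
Histogram of the C/EBPβ centre minus the PPARγ centre in bp (25-bp bins) at the 216 C/EBPβ-alone regions, with the number of regions on the vertical axis and a dashed line at 0. Most centres lie within 100 bp on either side, with low shoulders just beyond 100 bp on both sides.

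Absence of PU.1 from the region was often absence over a short range only. The gap to the nearest PU.1 region had a median of 1852 bp, with a smallest value of 6 bp and quartiles of 572 and 7387 bp. PU.1 lay within 250 bp of 29 regions, within 500 bp of 49, within 1000 bp of 79 (36.6%, 95% interval 30.4 to 43.2) and within 10 kb of 176. Regions with neither factor had PU.1 within 1000 bp in 121 of 394 cases, or 30.7%. In 7 of the 220 C/EBPβ regions concerned, the C/EBPβ region itself reached a PU.1 region that the PPARγ region missed. The median C/EBPβ-alone region had 2 PU.1 centres and 2 C/EBPβ centres within 10 kb, its own C/EBPβ included.

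At the edges of the rule, regions differed by a few bp. The smallest gaps to PU.1 were 6 bp at a region of fold 11.3 on chromosome 10 (66399480 to 66399856), 6 bp at a region of fold 7.71 on chromosome 2 (44774858 to 44775035) and 24 bp at a region of fold 7.33 on chromosome 5 (124735822 to 124736436). Just outside, regions with C/EBPβ met PU.1 by 6, 9 and 10 bp and had folds of 5.28, 5.20 and 5.54. The smallest overlap with C/EBPβ inside the rule was 11 bp, on chromosome 19 at 25066990 to 25067191 (fold 5.27). Regions with neither factor came as near to C/EBPβ as 5, 6 and 7 bp, with folds of 6.50, 5.06 and 5.96. The smallest gaps to an adipocyte PPARγ region were 17, 194 and 226 bp, all on chromosomes 17 and 2, at regions acetylated in both cell types.

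H3K9Ace, which played no part in the choice of regions, marked 122 of the 216 C/EBPβ-alone regions in macrophages, or 56.5% (95% Wilson interval 49.8 to 62.9). In adipocytes it marked 72, or 33.3% (27.4 to 39.9). Over all 1747 macrophage-only PPARγ regions the shares were 56.6% in macrophages and 29.7% in adipocytes, close to those of the class, and over all 1961 macrophage PPARγ regions they were 58.3% and 35.5%. By cell type, 61 regions were acetylated in macrophages alone, 61 in both cell types, 11 in adipocytes alone and 83 in neither. The excess in macrophages over adipocytes was 23.1 percentage points (61 against 11 regions marked in 1 cell type, exact McNemar test, 2-sided, p = 1.55e-09).

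Against the other macrophage-only regions, macrophage H3K9Ace at C/EBPβ-alone regions was less frequent than where both factors were present and more frequent than where neither was. The share was 56.5% with C/EBPβ alone and 69.5% (66.2 to 72.6) with both factors, an odds ratio of 0.571 (Fisher's exact test, 2-sided, interval 0.415 to 0.787, adjusted p = 0.0015 over 10 tests). The ratio was lower still, 0.379, when a PU.1 region within 1000 bp also counted as PU.1. With neither factor the share was 36.5% (31.9 to 41.4), and the odds with C/EBPβ alone were 2.25 times those with neither (Fisher's exact test, interval 1.58 to 3.21, adjusted p = 1.25e-05). In the upper 50% of the list by fold that ratio was 1.68 and no longer passed (Fisher's exact test, adjusted p = 0.168). It was 4.02 with the authors' longer macrophage list. That list holds 18470 regions of median width 213 bp, against 1961 of 315 bp in the final list. All 216 C/EBPβ-alone regions are in it with the same bounds, so it is no independent check. There the class with neither factor held 11333 regions, of which 27.8% were acetylated in macrophages, against 60.8% of 1277 with C/EBPβ alone. The shares with C/EBPβ alone and with PU.1 alone were 56.5% and 49.7%, a difference that did not pass (odds ratio 1.31, Fisher's exact test, interval 0.918 to 1.88, adjusted p = 0.192), and the ratio turned to 0.814 when PU.1 within 1000 bp counted. Regions with neither factor were also the narrowest and weakest, and the part of width and strength in this order was not tested.

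Adipocyte H3K9Ace at C/EBPβ-alone regions did not pass the test against any of the other 3 macrophage-only classes, which were not tested against each other. It marked 33.3% of C/EBPβ-alone regions, 31.5% with both factors, 27.5% with PU.1 alone and 25.9% with neither. The odds ratios of C/EBPβ alone over these were 1.09 (0.776 to 1.51), 1.32 (0.893 to 1.94) and 1.43 (0.979 to 2.09), with adjusted p of 0.622, 0.192 and 0.121 by Fisher's exact test. With the longer macrophage list all 3 passed, at 1.53, 1.38 and 2.17 (Fisher's exact test, adjusted p = 1.24e-09, 1.33e-05 and 6.9e-35), and with 50% cover by the factors the ratio over neither did, at 1.52 (adjusted p = 0.0229). When a longer adipocyte PPARγ list defined macrophage-only regions, the ratios were 1.04, 1.03 and 1.02, and none passed. Adipocyte H3K9Ace was far less frequent at C/EBPβ-alone regions than at PPARγ regions with C/EBPβ and without PU.1 that adipocytes shared. Of these 63 macrophage regions 47 were acetylated in adipocytes, 74.6% (62.7 to 83.7), and the odds ratio of macrophage-only over shared was 0.170 (Fisher's exact test, interval 0.0845 to 0.333, adjusted p = 7e-08). In macrophages 56.5% of C/EBPβ-alone and 61.9% of shared regions were acetylated (odds ratio 0.799, Fisher's exact test, interval 0.428 to 1.47, adjusted p = 0.524). Shared regions were stronger and wider, with a median fold of 8.5 and width of 352 bp, against 6.275 and 302 bp. The part of strength and width in these differences was not tested.

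**Figure D2:**
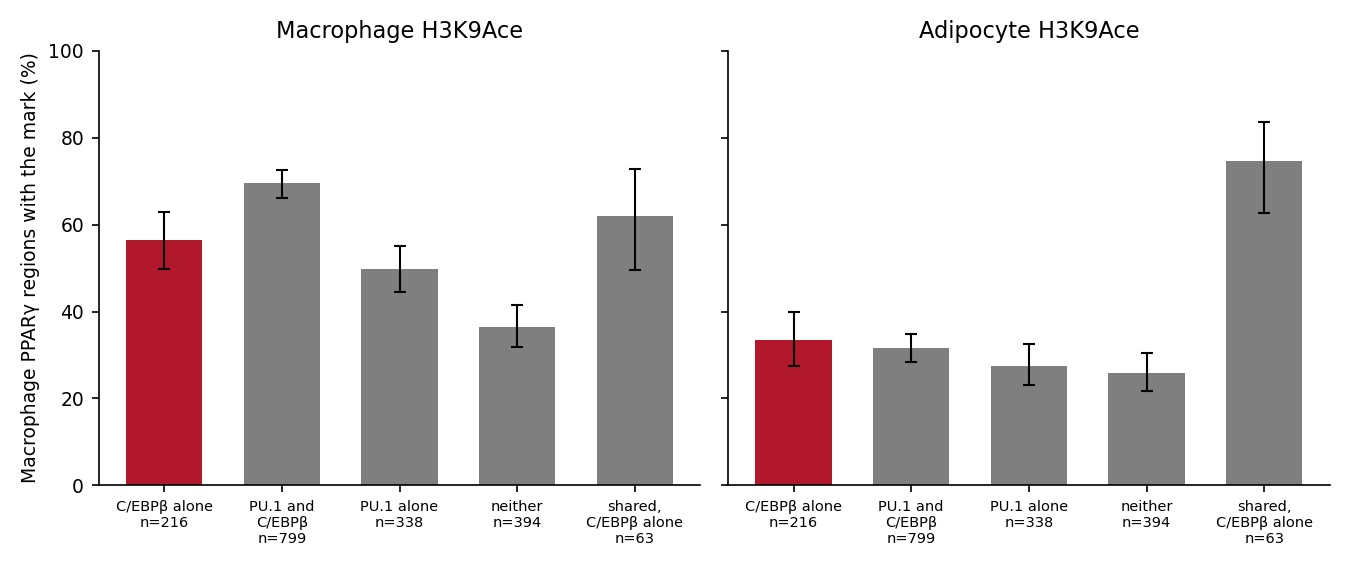
Share of macrophage PPARγ regions (%) that overlap H3K9Ace in macrophages (left) and adipocytes (right), with C/EBPβ-alone regions in red and the other classes in grey, and bars for 95% Wilson intervals. In macrophages the C/EBPβ-alone share of 56.5% lies between 69.5% with both factors and 36.5% with neither, and in adipocytes the shared class stands out at 74.6%.

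Seen from C/EBPβ, acetylation in macrophages was more frequent where the final macrophage list held PPARγ. Of the 220 C/EBPβ regions at C/EBPβ-alone PPARγ regions, 120 were acetylated in macrophages, 54.5% (47.9 to 61.0). Of 11121 C/EBPβ regions with neither PU.1 nor PPARγ of the final macrophage list, 43.7% (42.8 to 44.6) were, an odds ratio of 1.55 (Fisher's exact test, interval 1.17 to 2.04, adjusted p = 0.00387). When the longer macrophage list defined PPARγ, 10115 regions had neither, so some of the 11121 met a weaker PPARγ region. The 2 sides also differ in PU.1, which 7 of the 220 C/EBPβ regions met and the 11121 by definition did not. Over all 24421 C/EBPβ regions the share was 50.6%. The call on the odds ratio of 1.55 was lost in 4 of the 7 alternative settings, with a ratio of 1.25 in the upper 50% of PPARγ regions by fold (Fisher's exact test, adjusted p = 0.511). In adipocytes the shares were 32.7% and 38.4% (odds ratio 0.779, Fisher's exact test, interval 0.578 to 1.04, adjusted p = 0.155), against 34.6% of all C/EBPβ regions. This ratio also passed in opposite directions, at 0.417 when a longer adipocyte PPARγ list defined macrophage-only regions (adjusted p = 1.82e-05 by Fisher's exact test) and at 1.19 with the longer macrophage list (adjusted p = 0.00531). C/EBPβ regions at the PPARγ regions were wider, with a median of 318 bp against 242 bp, and the part of width in the difference was not tested. Of the 11420 C/EBPβ regions without PU.1, 213 met a C/EBPβ-alone PPARγ region, or 1.87%. Of the 13001 with PU.1, 808 met a macrophage-only PPARγ region with both factors, or 6.21%. Both shares come from the lists that defined the classes and are given without a test. C/EBPβ regions were also wider at PPARγ regions with both factors, with a median of 388 bp.

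The acetylated domains around the regions were wider than usual for the lists. The 122 macrophage domains had a median width of 1725 bp and the 72 adipocyte domains one of 2825 bp, while all domains had medians of 1050 and 1000 bp. A wide domain meets any region more easily, so the difference is given without a test. Domains at the other macrophage-only classes were wide too. The macrophage domains had a median of 1850 bp with both factors present, 1725 bp with PU.1 alone and 1850 bp with neither. For adipocyte domains these medians were 2650, 3450 and 3775 bp in the same order. The centre of the C/EBPβ-alone region lay inside the domain in 104 of 122 cases, at a median of 418 bp from the domain's own centre. PU.1 was present elsewhere in 56 of the 122 macrophage domains, or 45.9% (37.3 to 54.7), against 73 of 143 domains (51.0%) at regions with neither factor.

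Of the 94 regions without macrophage H3K9Ace, 21 had an acetylated domain within 1000 bp, on both sides in 3 cases and on 1 side in 18. The share of 22.3% within 1000 bp compared with 34.0% where both factors were present, 22.9% with PU.1 alone and 24.4% with neither, and was not tested. A domain on both sides was found at 3.19% with C/EBPβ alone, 3.69% with both factors, 3.53% with PU.1 alone and 4.00% with neither. Within 10 kb there was a domain at 62 of the 94.

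Although outside the final adipocyte list by definition, C/EBPβ-alone regions met a longer list of adipocyte PPARγ regions that the authors built from 3 combined datasets more often than the other macrophage-only regions. This comparison was chosen after seeing the data. The longer list holds 12430 regions with a median width of 899 bp, against 2634 of 260 bp in the final adipocyte list. A wide region centred beside a PPARγ region can therefore meet it. The final adipocyte list had a region within 1000 bp of 6 of the 216 C/EBPβ-alone regions. The part of list width in these overlaps was not tested. The overlap was 65 of 216 regions with C/EBPβ alone (30.1%, 24.4 to 36.5), against 19.4% of all 1747 macrophage-only regions. It was 21.2% (18.5 to 24.1) with both factors, an odds ratio of 1.60 for C/EBPβ alone (Fisher's exact test, interval 1.13 to 2.27, adjusted p = 0.0081 over 3 tests). With PU.1 alone it was 15.4% (11.9 to 19.6), an odds ratio of 2.37 (Fisher's exact test, interval 1.53 to 3.66, adjusted p = 7.01e-05). With neither factor it was 13.5% (10.4 to 17.2), an odds ratio of 2.77 (Fisher's exact test, interval 1.80 to 4.27, adjusted p = 3.45e-06), which reached 5.45 with the longer macrophage list. With the longer macrophage list the share with C/EBPβ alone was itself lower, at 16.1% (205 of 1277), against 10.8% with both factors, 7.35% with PU.1 alone and 3.39% with neither. The classes differ in width, as given above, and the part of width in these shares was not tested.

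**Figure D3:**
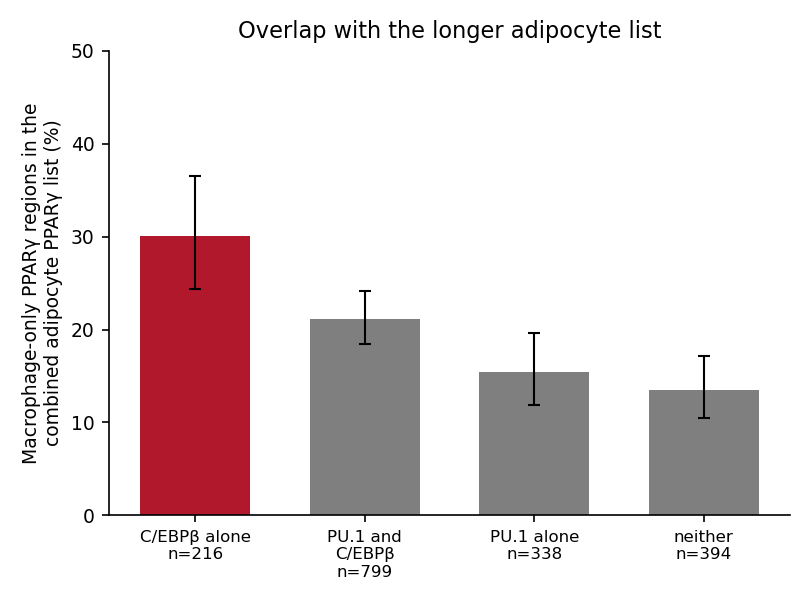
Share of macrophage-only PPARγ regions (%) that overlap the longer adipocyte PPARγ list, by macrophage factors present, with 95% Wilson intervals. C/EBPβ-alone regions (red) are at 30.1%, above 21.2%, 15.4% and 13.5% in the other classes (grey).

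Within the class, this subset differed from the rest in adipocyte chromatin. In adipocytes 40 of the 65 regions that met the longer list were acetylated, 61.5% (49.4 to 72.4), and 32 of the 151 that did not, 21.2% (15.4 to 28.4). The odds ratio was 5.95 (Fisher's exact test, interval 3.01 to 11.8, adjusted p = 1.41e-07 over 8 tests chosen after seeing the data). In the other macrophage-only classes too, regions outside the longer list had a lower adipocyte share than the class as a whole. The shares were 20.5% against 31.5% with both factors, 20.6% against 27.5% with PU.1 alone and 20.8% against 25.9% with neither. The split was not tested in those classes. In macrophages the shares of C/EBPβ-alone regions in and outside the longer list were 64.6% and 53.0% (odds ratio 1.62, Fisher's exact test, interval 0.855 to 3.11, adjusted p = 0.216). This ratio was 1.48 and passed with the longer macrophage list (68.3% and 59.3%, Fisher's exact test, adjusted p = 0.0304). For adipocyte H3K9Ace, distance to the final adipocyte list gave a like result. An adipocyte PPARγ region lay within 100 kb of 85 C/EBPβ-alone regions, of which 50.6% were acetylated in adipocytes, against 22.1% of the other 131 (odds ratio 3.60, Fisher's exact test, interval 1.91 to 6.80, adjusted p = 0.000115). That ratio was 5.97 when an acetylated domain within 1000 bp counted. Macrophage H3K9Ace was at 60.0% and 54.2% in these subsets (odds ratio 1.27, Fisher's exact test, interval 0.703 to 2.29, adjusted p = 0.552).

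Nearby PU.1 went with macrophage acetylation instead. Of the 79 C/EBPβ-alone regions with PU.1 within 1000 bp, 58 were acetylated in macrophages, 73.4% (62.8 to 81.9), against 64 of the 137 farther away, 46.7% (38.6 to 55.0). The odds ratio was 3.15 (Fisher's exact test, interval 1.66 to 6.06, adjusted p = 0.000511), and 4.77 in the upper 50% of the list by fold. In adipocytes the shares were 38.0% and 30.7% (odds ratio 1.38, Fisher's exact test, interval 0.740 to 2.57, adjusted p = 0.395). Other classes also had a lower macrophage share away from PU.1. With neither factor H3K9Ace marked 36.5% of all regions and 27.1% of those without PU.1 within 1000 bp. In shared regions with C/EBPβ and without PU.1 the values were 61.9% and 47.7%. The split was not tested in these classes. Regions at or above the median fold of the class were acetylated in 50.9% of cases in macrophages and those below it in 62.0% (odds ratio 0.635, Fisher's exact test, interval 0.356 to 1.13, adjusted p = 0.216). In adipocytes these shares were 31.5% and 35.2% (odds ratio 0.846, Fisher's exact test, interval 0.461 to 1.55, adjusted p = 0.665).

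**Figure D4:**
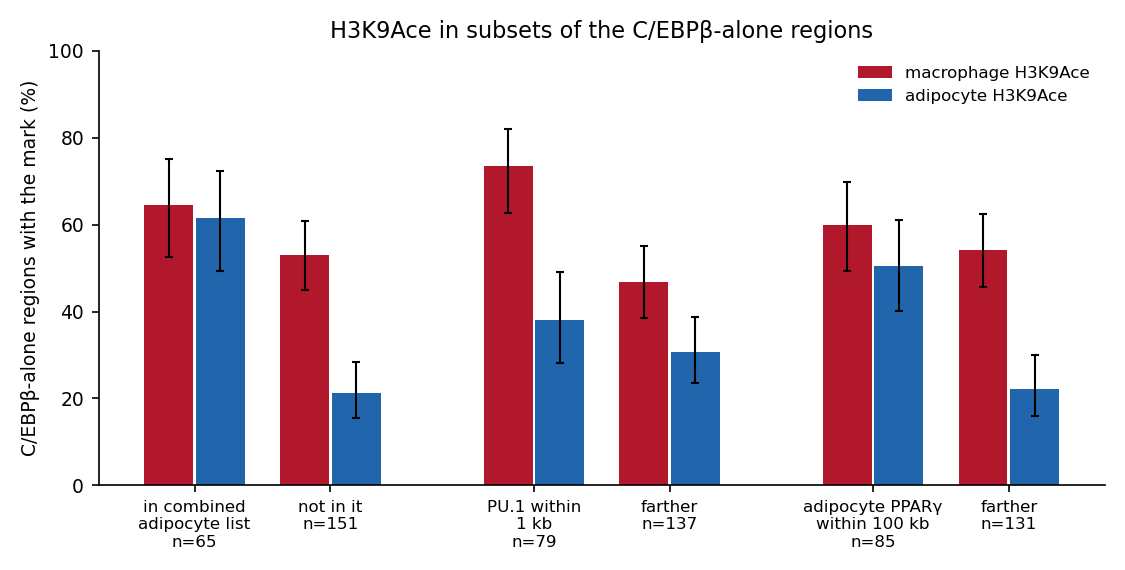
Share of C/EBPβ-alone regions (%) with H3K9Ace in macrophages (red) and adipocytes (blue), split by overlap with the longer adipocyte PPARγ list, by a PU.1 region within 1 kb and by an adipocyte PPARγ region within 100 kb, with 95% Wilson intervals. Both splits on adipocyte PPARγ separate the blue bars, at 61.5% against 21.2% and 50.6% against 22.1%, and the PU.1 split separates the red bars, at 73.4% against 46.7%.

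Median PPARγ strength was much the same in the 4 acetylation states. Median fold was 6.17 at regions acetylated in macrophages alone, 6.00 in both cell types, 6.55 in adipocytes alone and 6.60 in neither. The upper quartiles of fold were farther apart, at 7.36, 7.43, 7.89 and 8.765 in the same order, and were not tested. Median widths were 317, 337, 235 and 283 bp in the same order. Median gaps to PU.1 were 1151 and 1297 bp in the first 2 states, against 3656 and 3553 bp in the others. The nearest adipocyte PPARγ region was at a median of 246241 bp from regions acetylated in macrophages alone, 57152 bp for both cell types, 80069 bp for adipocytes alone and 299626 bp for neither.

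**Figure D5:**
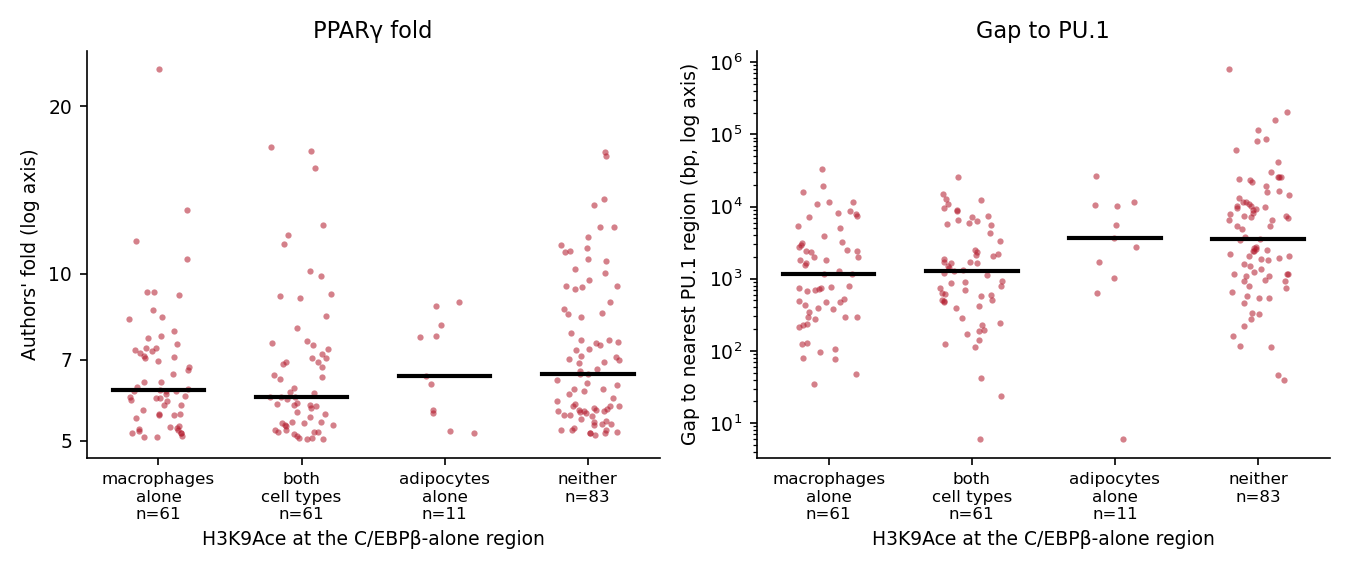
Authors' PPARγ fold (left, log axis) and gap to the nearest PU.1 region in bp (right, log axis) for each C/EBPβ-alone region, grouped by the cell types in which it overlaps H3K9Ace, with black lines at the medians. The folds overlap throughout, with medians from 6.00 to 6.60, while the median gap to PU.1 is 1151 and 1297 bp in the first 2 groups and over 3500 bp in the others.

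The strongest region of the class was also the strongest of the macrophage-only list. It lies on chromosome 9 at 61135699 to 61136036, with a fold of 23.3, a peak height of 44, C/EBPβ 11.5 bp from its centre and PU.1 214 bp away, and was acetylated in macrophages alone. Chromosome 4 at 144227261 to 144227532 (fold 16.9) followed, 893 bp from an adipocyte PPARγ region, in the longer adipocyte list and acetylated in both cell types. So were the region on chromosome 11 at 29708471 to 29708913 (fold 16.6) and that on chromosome 1 at 192931017 to 192931652 (fold 15.5), both in the longer adipocyte list too.

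Other strong regions carried no acetylation at all. The region on chromosome 2 at 16600777 to 16600970 (fold 16.6) was the most isolated of the first 10. PU.1 was 159386 bp away, macrophage H3K9Ace 326777 bp and adipocyte H3K9Ace 1343930 bp, yet the C/EBPβ centre was 1.5 bp from its own and the longer adipocyte list held it. Chromosome 2 at 150587262 to 150587717 (fold 16.3) was likewise unacetylated, with the nearest macrophage domain at 6833 bp. Unacetylated regions on chromosome 17 at 49887019 to 49887385 (fold 13.6) and chromosome 2 at 145557793 to 145557986 (fold 13.3) lay 115 and 143 bp from a macrophage domain. PU.1 was 39 bp from the first of these and 322 bp from the second, which lay nearer still to an adipocyte domain, at 14 bp.

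The first 10 by fold were completed by chromosome 16 at 10616032 to 10616310 (fold 13.0, macrophages alone) and at 24977026 to 24977347 (fold 12.2, both cell types). Chromosome 9 at 36985676 to 36986169 (fold 11.4) came next among regions acetylated in macrophages alone. The strongest regions acetylated in adipocytes alone were weaker, with a fold of 8.88 on chromosome 8 (47983855 to 47984093), 8.75 on chromosome 14 (45834195 to 45834719) and 8.07 on chromosome 13 (53030503 to 53030685). The longer adipocyte list held all of these last 3, as it did 7 of the 11 regions in that state.

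The class was scattered over the genome. Chromosome 11 held 18 regions, chromosome 1 held 17 and chromosome 10 held 15, with 2 on chromosome X and none on chromosome Y. Set against the shares of all macrophage-only regions, chromosome 11 held 8.33% and 7.44%, chromosome 13 held 6.48% and 4.58%, and chromosome 18 held 3.70% and 2.23%. Chromosome 2 held 6.02% of the C/EBPβ-alone and 8.64% of all macrophage-only regions, and chromosome 16 held 2.78% and 4.35%. These differences were not tested. Another macrophage PPARγ region lay within 10 kb of 46 regions, or 21.3% (16.4 to 27.2). In 21 of these cases the neighbour carried both factors, in 7 PU.1 alone, in 6 C/EBPβ alone and in 6 neither, and 6 neighbours were shared with adipocytes.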

How the data were processed

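The members and lists were chosen with earlier results of these data known. The authors aligned 36-bp reads to mm8 using ELAND, kept unique best matches and tolerated up to 2 mismatches, per the labels' protocols. The sources used here do not give caller settings or the control. Unique mapping leaves repeated sequence under-represented. Areas of input bias were masked before the final lists were made, per the series design text, and no masked interval overlapped a C/EBPβ-alone region. The deposited PPARγ lists give a fold per region, a peak height (a whole-number signal whose scaling is not stated) and a false discovery rate, a deposited percent of 0.24 in every row of the macrophage list. These are the authors' values and were used only to describe, rank or split. The other lists give positions alone, so cell identity could not be checked against markers. The adipocyte H3K9Ace list held 20 repeated rows, counted once.

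Overlaps, gaps and centre distances were computed in Python 3.11.15 with pandas 2.3.3, on positions as the files give them, and checked on simulated regions. Intervals of shares are 95% Wilson intervals and cover counting error alone. Differences between shares were tested with Fisher's exact test, 2-sided (scipy 1.17.1), giving exact conditional 95% intervals around the sample odds ratio, and p-values were adjusted by Benjamini-Hochberg over 10 planned tests and over 3, 8 and 4 tests added after seeing the data. The exact McNemar test is a binomial test on regions marked in 1 cell type alone. Adjusted p under 0.05 passed. Named regions are the 10 with the highest fold, the 3 highest in each H3K9Ace state, and those nearest the edges of the rule. Alternatives were a 50% cover by factors, H3K9Ace at the centre or within 1000 bp, fold at or above the list's median, each longer list, and PU.1 within 1000 bp.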

Additional observations from a re-analysis of the deposited data

Results flagged for a closer look

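The contrast of macrophage with adipocyte acetylation differed between macrophage-only and shared PPARγ regions with C/EBPβ alone. Among regions acetylated in 1 cell type, 61 of 72 macrophage-only regions carried the mark in macrophages, against 3 of 14 shared regions, an odds ratio of 20.3 (Fisher's exact test, interval 4.23 to 125, adjusted p = 2.71e-05 over 4 tests chosen after seeing the data). The macrophage-minus-adipocyte difference was 23.1 percentage points in macrophage-only and -12.7 points in shared regions. The ratio was between 15.0 and 37.9 in the 7 alternative settings, the higher value with PU.1 within 1000 bp counted. It rests on few shared regions. The groups were split by overlap with adipocyte PPARγ, and shared regions were stronger and wider, as given above. The part of these in the contrast was not tested. Against both factors, PU.1 alone and neither factor the ratios were 0.574, 1.17 and 2.27, and none passed (Fisher's exact test, adjusted p of 0.187, 0.840 and 0.0883), although the ratio against both factors passed in 3 alternative settings and that against neither factor in 2.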

How the results depend on the processing

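The number of C/EBPβ-alone regions was 258 with 50% cover by the factors, 113 in the upper 50% by fold, 151 with the longer, combined adipocyte list, 137 with PU.1 within 1000 bp counted and 1277 from the longer macrophage list. Their macrophage H3K9Ace share was 48.1% at the centre, 66.2% within 1000 bp and 46.7% with PU.1 within 1000 bp counted. Their adipocyte share was 40.7% within 1000 bp, 21.2% with the combined list and 41.3% with the longer macrophage list. Across all 7 settings the excess in macrophages over adipocytes, the lower macrophage share than with both factors, and the lower adipocyte share than in shared regions kept direction and call. The higher macrophage share than with neither factor lost its call in the upper 50% by fold (odds ratio 1.68). Macrophage H3K9Ace against C/EBPβ regions without PU.1 or PPARγ, as defined above, lost its call with the mark at the centre (1.37), in the upper 50% by fold (1.25), with the combined list (1.34) and with PU.1 within 1000 bp (1.30). In adipocytes that ratio passed with the combined list (0.417), and with the longer macrophage list it passed in the opposite direction (1.19). Against neither factor the adipocyte ratio passed with 50% cover (1.52) and with the longer macrophage list (2.17). With that list the ratios against PU.1 alone passed at 1.30 in macrophages and 1.38 in adipocytes, as did the adipocyte ratio against both factors at 1.53. With the combined adipocyte list the adipocyte ratios against both factors, PU.1 alone and neither factor were 1.04, 1.03 and 1.02, and none passed.

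Among differences that passed in no main comparison, the direction turned for adipocyte H3K9Ace against both factors in the upper 50% by fold (0.882) and with PU.1 within 1000 bp (0.934). It turned for macrophage H3K9Ace against PU.1 alone with PU.1 within 1000 bp (0.814), and against shared regions with the mark within 1000 bp (1.21) and with the longer macrophage list (1.05). The macrophage-alone contrast against PU.1 alone turned with 50% cover (0.949), the mark at the centre (0.960) or within 1000 bp (0.833), the longer macrophage list (0.800) and PU.1 within 1000 bp (0.768). The adipocyte ratio by fold turned in the upper 50% by fold (1.06). The cause of these changes was not tested. The added comparisons that passed, on the longer adipocyte list, nearby PU.1 and nearby adipocyte PPARγ, passed in every setting in which they could be run. Macrophage H3K9Ace by overlap with the longer adipocyte list (1.48) and by fold (0.689) passed with the longer macrophage list only. No paired analysis was possible because each group holds 1 library, so that samples could not be paired. The McNemar test pairs the marks of the same region and not samples. Depth is unknown, so a missing overlap may be a region below the authors' threshold.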
